A study of Mus musculus with 12 samples.

Results

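Mouse prostate organoids of basal origin were given butyrate alone or vehicle and sequenced, with 3 RNA-seq samples in each group. The genes described are those with a mean of at least 1 TPM (transcripts per 1000000) in either group, which were 14061 of the 24674 genes in the deposited table. Of these, 12637 reached 1 TPM in both groups, 835 with vehicle only and 589 with butyrate only, and 10483 were annotated as protein coding, 2234 as pseudogenes and 909 as long non-coding RNAs. Letm2 (0.949 ± 0.108 TPM with vehicle and 1.00 ± 0.0509 TPM with butyrate, SD, n = 3) and Pus7l (1.00 ± 0.0293 and 0.983 ± 0.0829 TPM) lay just inside this limit, and Ppih (0.999 ± 0.129 and 0.718 ± 0.0627 TPM) and Gfod2 (0.998 ± 0.0761 and 0.657 ± 0.0238 TPM) lay just outside it.

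All cultures were of the wild-type genotype and the C57BL/6 strain, and came from prostate tissue. The labels give neither the dose of butyrate nor the length of exposure, and neither the age nor the number of the animals. Another group of 3 samples received UK5099, an inhibitor of the mitochondrial pyruvate carrier, and a further group of 3 received both compounds. Nothing in the labels says that replicates of a group were separate cultures or animals, so the p-values measure only the spread between these samples, which may be technical.

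Histone deacetylases remove acetyl groups from lysines of histones and other proteins, and acetylated histone tails are bound by bromodomain proteins at active genes. Butyrate, a short-chain fatty acid made by gut bacteria, inhibits most of the zinc-dependent deacetylases and is also a fuel that mitochondria oxidise. Basal cells of the prostate rest on a basement membrane and express Krt5 and Krt14, luminal cells line the duct and express Krt8 and Krt18, and stratified squamous epithelia such as epidermis build a cornified envelope instead of a secretory layer.

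Recovered sequencing depth in the 6 samples ran from 33252059 to 42541695 fragments. Replicates lay close to each other, with a median coefficient of variation per gene of 3.80% with vehicle and 3.63% with butyrate. The first principal component of the 6 samples held 84.7% of the variance. Every pair of replicates differed by more than counting noise, with a chi-square per gene between 1.93 and 2.42. Of the epithelial markers, 5 of 5 basal markers reached 1 TPM and summed to between 3605 and 3643 TPM with vehicle and between 4623 and 4815 TPM with butyrate, and 5 of 5 luminal markers summed to between 4671 and 4854 TPM and between 2415 and 2453 TPM. Organoids derived from basal cells therefore carried RNA of both epithelial types in both groups.

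Butyrate changed 874 genes, 6.22% of those tested, of which 278 rose (1.98%) and 596 fell (4.24%). A gene was called when its limma coefficient, the difference in log2(TPM + 1) between butyrate and vehicle, was past 1 in size with an adjusted p under 0.01. The 3 butyrate values of every called gene lay outside the range of its vehicle values, but so did those of 79.4% of all genes, so that the lack of overlap says little alone. A fold is the ratio of mean TPM, and the coefficient is smaller than the log2 of the fold for genes near 1 TPM because of the added 1. Coefficients went past 2 for 69 genes and under −2 for 71 genes. Among protein-coding genes 2.09% rose and 4.99% fell. Of the called genes, 94 had reached 1 TPM with butyrate only and 102 with vehicle only, and these had passed the level filter through the group in which they were high.

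The direction of small changes depended on scale. TPM is a share of a fixed total, and the median coefficient over all 14061 genes was −0.30, whereas median of ratios scaling brought it to −0.04. With that scaling 739 genes were called (5.26%), 431 higher (3.07%) and 308 lower (2.19%). With voom on the recovered fragments 1291 genes were called (9.18%), 767 higher (5.45%) and 524 lower (3.73%). Of the 278 raised genes, 277 were also raised under each of these scalings, while of the 596 lowered genes 308 were lowered under the median of ratios and 400 under voom. Coefficients are given below on the deposited scale, to be read against the median of −0.30, and genes whose call was lost under the median of ratios are named as such. Counts of called genes in the groups below are to be read against 1.98% raised and 4.24% lowered over all genes. Under the median of ratios these shares were 3.07% and 2.19%.

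**Figure D1:**
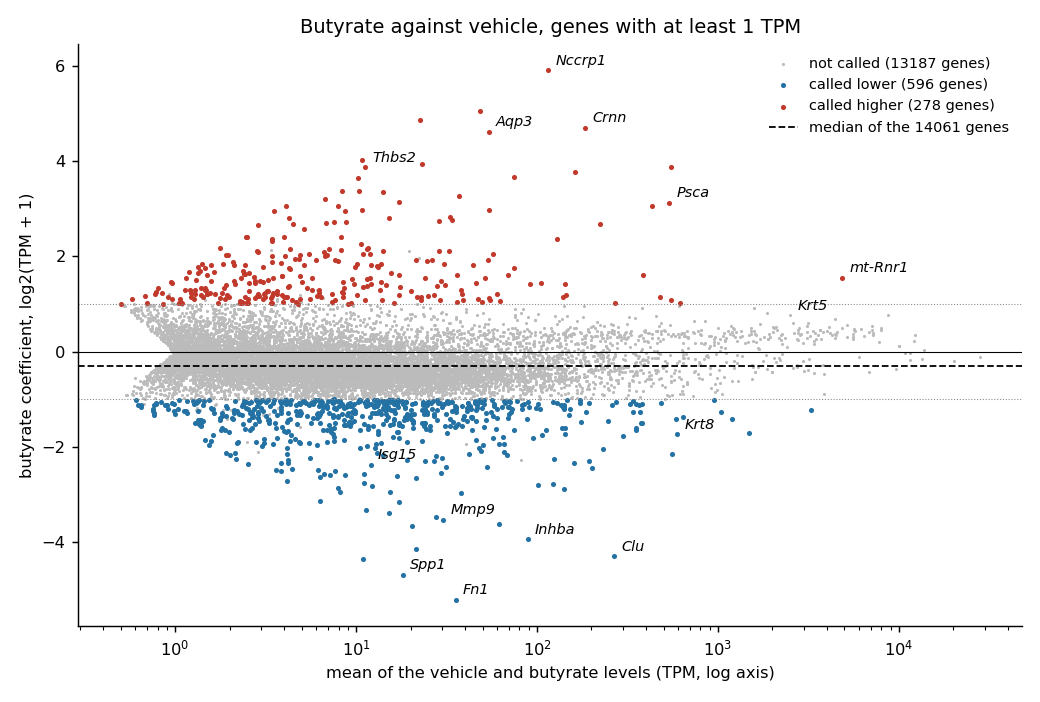
Mean level of each of the 14061 genes over the vehicle and butyrate samples (horizontal axis, TPM on a log scale) against its butyrate coefficient (vertical axis, log2 of TPM + 1), with the 278 genes called higher and the 596 called lower in colour and 13187 others in grey. The dashed line is the median coefficient of −0.30. Among protein-coding genes the median vehicle level was 1.93 TPM for raised and 17.9 TPM for lowered genes.

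**Figure D2:**
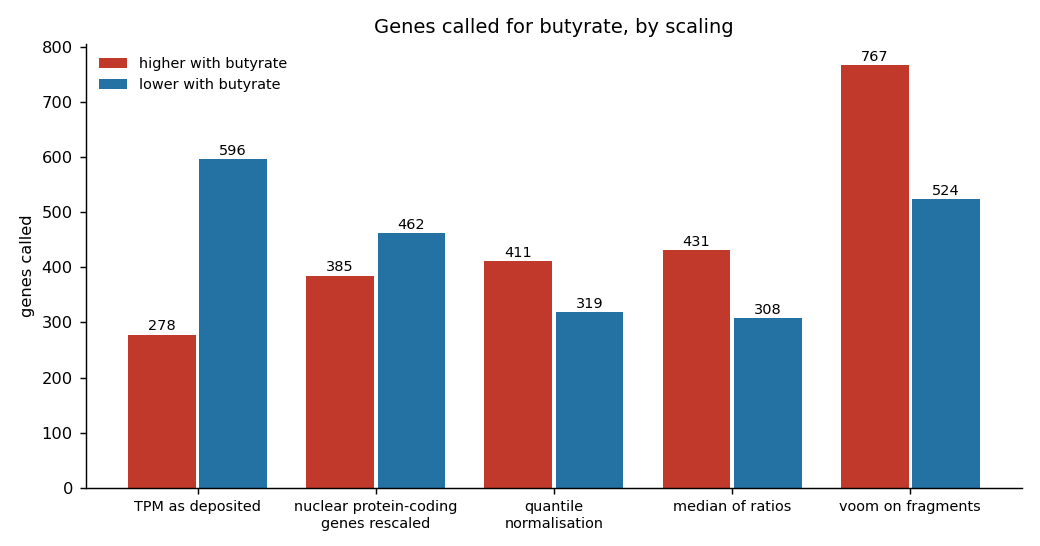
Number of genes called higher and lower with butyrate against vehicle (vertical axis, genes) under 5 ways of scaling, each with all 12 samples in the fit. The deposited TPM gave 278 higher and 596 lower, and the median of ratios gave 431 higher and 308 lower.

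The 15 largest increases among protein-coding genes included proteins of stratified epithelia, of the cell surface and of the matrix, and a detoxifying enzyme. Nccrp1, an F-box-like protein of stratified epithelia (chromosome 7, 28243021 to 28246679 in the table's coordinates, whose build the table does not name), was at 3.01, 2.64 and 2.85 TPM with vehicle and 230.2, 221 and 232 TPM with butyrate, an 80.3-fold difference with a coefficient of 5.90 ± 0.19 (SE, adjusted p = 6.30e-09). Ly6g6c, a surface protein of the Ly6 family, was at 2.17, 1.67 and 1.88 TPM with vehicle and 93.2, 93.7 and 99.1 TPM with butyrate, 50.01-fold apart. For both genes each butyrate sample stood far above each vehicle sample and the replicates of a group were close together. Others among the 15 largest increases were Mgp, an inhibitor of calcification (1.96 to 44.2 TPM on average, coefficient 3.94 ± 0.068, SE), Thbs2, a matrix-associated thrombospondin (0.570 to 21.9 TPM, 3.87 ± 0.046), Fabp5, the epidermal fatty acid-binding protein (21.4 to 304 TPM, 3.77 ± 0.056), and Fgfr3, a fibroblast growth factor receptor (6.19 to 68.0 TPM, 3.26 ± 0.039). The low values of Fabp5 and Fgfr3 were not whole numbers of fragments, and 5 of the 6 values of Teddm3, a gene with a coefficient of 4.86 ± 0.074, were not either. Reads of these genes may be shared with similar loci, so that their levels are uncertain.

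**Figure D3:**
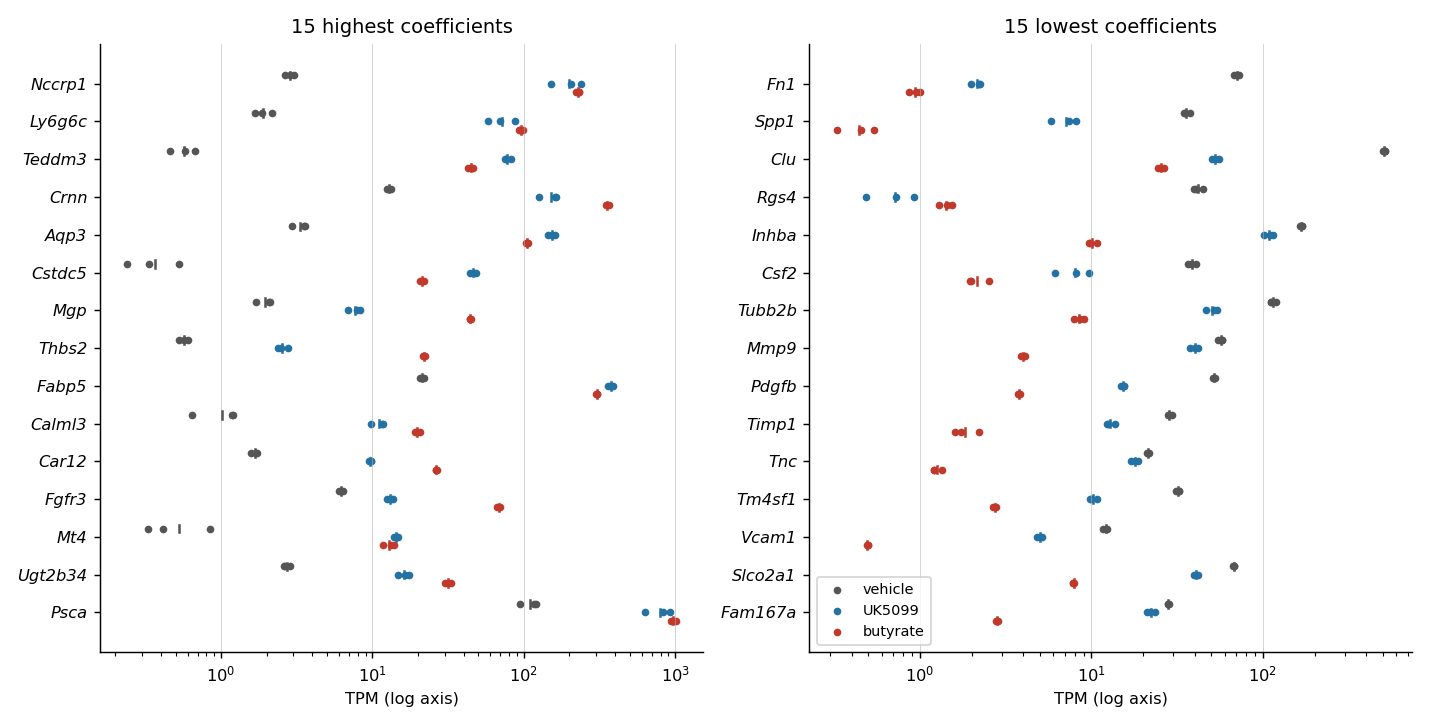
TPM of the 15 protein-coding genes with the highest and the 15 with the lowest butyrate coefficients (one row per gene, horizontal log axis), with a point for each of the 3 vehicle (grey), 3 UK5099 (blue) and 3 butyrate (red) samples. Vehicle and butyrate points are separated in every row, and replicates of a group lie close together.

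The cornified envelope is the cross-linked protein shell that squamous cells build beneath the plasma membrane. Of 23 genes for it and for late squamous differentiation at or above 1 TPM, 15 rose and 0 fell, with a median coefficient of 1.28 (1.53 under the median of ratios) beside −0.30 for all genes. Crnn, the fused-type S100 protein cornulin, was at 13.2, 12.4 and 12.8 TPM with vehicle and 366, 349 and 353 TPM with butyrate, a 27.8-fold rise with a coefficient of 4.69 ± 0.10 (SE, adjusted p = 8.35e-10). Calml3, a calmodulin-like protein of differentiating keratinocytes, was at 0.637, 1.21 and 1.18 TPM with vehicle and 19.02, 20.8 and 19.4 TPM with butyrate, 19.6-fold higher with butyrate. The groups did not overlap for either gene, and the butyrate replicates of Crnn spanned a narrow range. Sbsn, Dmkn and Krtdap, secreted proteins encoded side by side and made in suprabasal cells, had coefficients of 2.76 ± 0.058, 3.06 ± 0.041 and 2.95 ± 0.087, where the low values of Sbsn were not whole in fragments. Dmkn, the largest of these, was at 0.907, 0.955 and 0.879 TPM with vehicle and 14.98, 14.7 and 15.3 TPM with butyrate, and no value of a group fell in the range of the other. Spink5, an inhibitor of the epidermal kallikreins, went from 1.67 to 19.8 TPM (coefficient 2.96 ± 0.091). Ivl, the envelope scaffold involucrin (1.12), Evpl, the plakin envoplakin (1.397), Tgm1, the transglutaminase that cross-links the envelope (1.28), and Sprr1a, a small proline-rich envelope protein (1.09), rose less, and Ppl, the plakin partner of envoplakin, was not called (0.38). Sprr2d (chromosome 3, 92246447 to 92248180) had the 1 coefficient below 0 in the list (−0.81) and was not called. It was at 7.02 ± 0.783 TPM with vehicle and 3.61 ± 0.932 TPM with butyrate (SD, n = 3).

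Rptn, the envelope precursor repetin, was close to silent with vehicle. Its values were 0.0526, 0.0271 and 0.0835 TPM with vehicle and 6.22, 5.92 and 4.99 TPM with butyrate, or a mean of 2.33 fragments against 292 fragments, too few in vehicle for a useful fold. All 3 butyrate samples had several TPM and no vehicle sample reached 0.1 TPM. In the table's order of protein-coding genes that reached 1 TPM, Sprr1a, Ivl, Crct1, Crnn, Rptn and Tchh were next to each other and all rose, a run of 6 genes over 965 kb of chromosome 3 (92391259 to 93356384), the epidermal differentiation complex. Crct1, another gene of that complex, was at 0, 0.105 and 0.162 TPM with vehicle and 1.88, 2.90 and 1.85 TPM with butyrate. Rptn and Crct1 passed the level filter only through butyrate, the group in which they were high. Genes under 1 TPM in both groups were left out of the order, so the run is a description only. Across the genome 8 runs of at least 3 neighbouring raised genes and 9 of at least 3 lowered genes were found. The other raised runs included Sbsn, Dmkn and Krtdap on chromosome 7, Krt23, Krtap3-2, Krtap1-5 and Krt13 on chromosome 11, the stefin genes Csta1, Cstdc5 and Stfa3 on chromosome 16, and S100a8, S100a9 and Pglyrp4 on chromosome 3. Krtap1-5 lost its call without vehicle replicate 1 (0.98) or vehicle replicate 2 (1.00, under the limit before rounding).

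Promoter sequences of Crnn and Rptn, neighbours in that complex, and of the keratin gene Krt13 are shown as examples of genes that rose. Each is the 250 bases before the RefSeq start on GRCm38.p6, printed in the direction of transcription. Capitals mark a TATA box (TATAAA) and an AP-1 element (TGANTCA), searched on both strands. The windows are chr3:93144539-93144788 on the plus strand for Crnn, chr3:93393449-93393698 on the plus strand for Rptn and chr11:100121567-100121816 on the minus strand for Krt13.
Crnn: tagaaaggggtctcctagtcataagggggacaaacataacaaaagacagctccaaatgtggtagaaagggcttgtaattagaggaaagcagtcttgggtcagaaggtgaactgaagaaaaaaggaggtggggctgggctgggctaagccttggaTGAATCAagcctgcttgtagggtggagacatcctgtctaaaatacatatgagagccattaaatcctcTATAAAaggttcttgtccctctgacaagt
Rptn: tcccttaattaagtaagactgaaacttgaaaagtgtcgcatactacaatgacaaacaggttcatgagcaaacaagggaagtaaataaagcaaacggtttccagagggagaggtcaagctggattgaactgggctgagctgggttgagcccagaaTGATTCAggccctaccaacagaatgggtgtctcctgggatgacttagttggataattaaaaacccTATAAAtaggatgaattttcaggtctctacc
Krt13: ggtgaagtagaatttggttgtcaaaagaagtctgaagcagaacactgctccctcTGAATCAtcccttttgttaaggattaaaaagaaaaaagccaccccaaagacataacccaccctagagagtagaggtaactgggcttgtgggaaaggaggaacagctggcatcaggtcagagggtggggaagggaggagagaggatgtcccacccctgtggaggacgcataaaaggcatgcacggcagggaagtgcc
Each of the 3 windows held 1 AP-1 element, and those of Crnn and Rptn also held TATAAA. These windows are examples chosen after the values had been seen, so their matches do not show how often either motif occurs among raised genes. Among all promoters of the genes tested for which RefSeq gave a sequence, 4.56% held TGANTCA and 6.41% held TATAAA, and among all 27025 RefSeq promoters 6.87% and 13.0% did. A promoter was found for 68.9% of the raised and 76.1% of the lowered protein-coding genes, under the 80% set for a comparison of classes, so that comparison was void.

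Keratins of stratified epithelium also rose. Of 13 such keratins, 8 rose and 1 fell, with a median coefficient of 1.21. Krt13, a keratin of mucosal squamous epithelia, was at 10.8, 12.9 and 10.97 TPM with vehicle and 98.4, 96.0 and 97.4 TPM with butyrate, an 8.42-fold rise with a coefficient of 2.97 ± 0.13 (SE, adjusted p = 4.18e-08). Its partner Krt4 was at 410.1, 429 and 382 TPM with vehicle and 823, 832 and 821 TPM with butyrate (coefficient 1.02 ± 0.092, SE, and 0.97, under the limit, without vehicle replicate 3). No butyrate sample of either keratin fell within the vehicle range. Krt1 and Krt10, the pair of epidermal suprabasal cells, had coefficients of 1.22 ± 0.054 and 1.33 ± 0.11, and Krt16 and Krt6b, induced in wounded epidermis, of 1.42 ± 0.052 and 2.68 ± 0.094. The reads of Krt6b did not come out as whole fragments in any sample, and Krt6a, its near-identical copy, was not called (0.91). Krt17 was lower (−1.03), a call lost under the median of ratios (−0.72).

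Transcription factors of the squamous programme were called in part. Of 20 factors 4 rose and 2 fell, and under the median of ratios 8 rose and 0 fell. Zfp750, a factor of terminal epidermal differentiation, was at 11.5, 11.5 and 12.2 TPM with vehicle and 55.6, 52.6 and 53.0 TPM with butyrate, 4.59-fold higher with a coefficient of 2.11 ± 0.047 (SE, adjusted p = 9.12e-10). Hopx, a homeodomain protein without DNA binding (1.33 ± 0.063), Ovol1, a zinc finger factor of epidermal differentiation (1.08 ± 0.058), and Sox2, a factor of basal progenitors in several squamous epithelia (1.07 ± 0.024), also rose. Klf4, a factor needed for the skin barrier, stood at 0.97, under the limit, and was called with the median of ratios (1.28). Sox9 (−1.003) was called lower by a narrow margin and did not keep its call under the median of ratios. Without vehicle replicate 2 or without butyrate replicate 1 the number of lowered factors was 1, and without butyrate replicate 2 it was 0.

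Surface and secreted proteins of the same epithelia followed. Among 11 genes of the Ly6 and uPAR family 5 rose and 1 fell. Ly6d, a surface marker of stratified epithelia, was at 89.1, 95.6 and 93.8 TPM with vehicle and 799, 760.3 and 767 TPM with butyrate (coefficient 3.05 ± 0.054, SE, adjusted p = 2.55e-10), and Lypd3, a relative found in suprabasal cells, had a coefficient of 1.42 ± 0.068. Psca, a Ly6-like surface antigen of the prostate, was at 117, 120.6 and 94.1 TPM with vehicle and 1007, 938 and 952 TPM with butyrate, 8.74-fold higher. The butyrate samples were higher than every vehicle sample for each of these. Plaur, the urokinase receptor, fell (−1.297), a call lost under the median of ratios. Among 12 surface serine proteases and their inhibitors, 4 rose (Tmprss11b 2.04, Slpi 1.43, Prss27 1.15 and Tmprss11g 1.15) and St14, the protease matriptase, fell (−1.05, call lost under the median of ratios). The stefins Csta1 (2.15 ± 0.092) and Stfa3 (2.81 ± 0.045), inhibitors of cathepsins, rose, as did Cstdc5 (4.03 ± 0.094), of whose 3 low values 1 was whole in fragments. Of 11 genes for barrier lipids, 2 rose, Cyp4f39 (1.88) and Elovl4 (1.01, and 0.98 without vehicle replicate 1), which make very long-chain acylceramides. Among 10 desmosome genes 0 rose and Pkp2 fell (−1.07, call lost under the median of ratios).

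**Figure D4:**
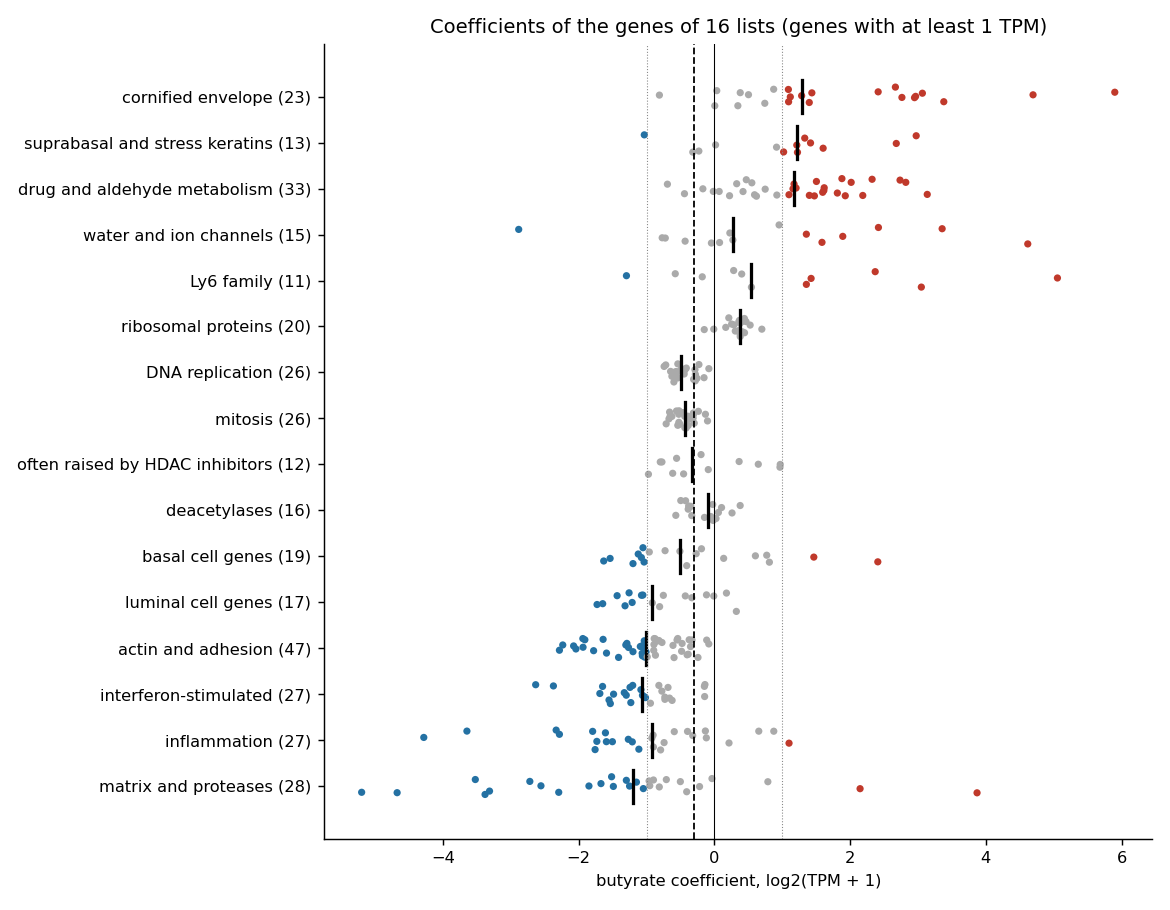
Butyrate coefficients (horizontal axis, log2 of TPM + 1) of the genes at or above 1 TPM in each of 16 gene lists, with genes called higher in red, called lower in blue, others in grey and the median of each list as a bar. The dashed line is the median of all genes at −0.30 and the dotted lines are the limits of 1 and −1, and the medians run from 1.28 for the cornified envelope to −1.20 for the extracellular matrix.

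Extracellular matrix and mesenchymal genes fell. Of 28 such genes 16 fell and 2 rose, with a median coefficient of −1.20, and under the median of ratios 13 fell and 3 rose. Fn1, the matrix glycoprotein fibronectin (chromosome 1, 71624679 to 71692359), was at 72.1, 68.2 and 70.2 TPM with vehicle and 0.951, 0.858 and 1.004 TPM with butyrate, 74.8-fold lower with a coefficient of −5.20 ± 0.038 (SE, adjusted p = 3.95e-12). Spp1, the secreted phosphoprotein osteopontin, was at 37.6, 34.4 and 35.3 TPM with vehicle and 0.542, 0.450 and 0.327 TPM with butyrate, 81.3-fold lower. No butyrate value of either gene came near the vehicle range. Tnc, the matrix glycoprotein tenascin C, went from 21.4 to 1.26 TPM (coefficient −3.31 ± 0.050), Thbs1 from 323 to 65.0 TPM (−2.29 ± 0.060), Col7a1, the collagen of anchoring fibrils, from 72.3 to 19.4 TPM (−1.85 ± 0.038), and Vim, the mesenchymal intermediate filament vimentin, from 7.98 to 0.364 TPM (−2.72 ± 0.054). Thbs2, in contrast to Thbs1, was at 0.531, 0.570 and 0.609 TPM with vehicle and 21.6, 22.2 and 22.0 TPM with butyrate, and Tgfbi, a matrix protein that binds integrins, also rose (2.15 ± 0.044).

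Of 12 genes for matrix metalloproteinases and their TIMP inhibitors, a group taken by symbol after the values had been seen, 8 fell and 0 rose, with a median coefficient of −1.32 beside −0.30 for all genes. Under the median of ratios 6 fell. Mmp9, a gelatinase, was at 57.9, 57.5 and 54.3 TPM with vehicle and 3.86, 4.03 and 4.12 TPM with butyrate, 14.1-fold lower with a coefficient of −3.52 ± 0.062 (SE, adjusted p = 2.39e-10). Timp1, an inhibitor of these proteases, was at 27.8, 29.5 and 28.2 TPM with vehicle and 1.60, 1.73 and 2.20 TPM with butyrate, 15.5-fold lower. Both groups were tight and apart for each gene. Mmp13, a collagenase (−1.67), Mmp3 (−1.15) and Mmp10 (−2.56), both stromelysins, lie next to each other on chromosome 9, and all fell, with the call of Mmp3 lost under the median of ratios. Timp3 (−1.49), Mmp23 (−1.55) and the membrane protease Mmp14 (−1.05, call lost) fell as well. The other 4 were not called, and Mmp28 among them stood at 0.44.

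Genes of the TGF-beta and activin pathway were called in both directions. The list of 35 genes of this pathway and the Hippo pathway was drawn up after the values had been seen. In it 11 fell and 1 rose, with a median of −0.69, and 6 fell under the median of ratios. Inhba, the subunit of the ligand activin A, was at 169, 165 and 169.7 TPM with vehicle and 9.75, 9.62 and 10.8 TPM with butyrate, 16.7-fold lower with a coefficient of −3.93 ± 0.067 (SE, adjusted p = 2.16e-10). The ligands Tgfb3 (−2.26 ± 0.060) and Tgfb1 (−1.34 ± 0.029) had coefficients nearer to 0, and the ligand Bmp3 rose (1.23 ± 0.043). These were the 4 called among 10 ligand genes of the TGF-beta family, a group taken by symbol after the values had been seen, of which 4 had coefficients above 0 and whose median was −0.0439, and 0.21 under the median of ratios. Among targets and feedback genes, Pmepa1 was at 37.5, 37.8 and 37.2 TPM with vehicle and 4.99, 5.26 and 5.32 TPM with butyrate (coefficient −2.64 ± 0.026), Ccn2, a matricellular target of both pathways, fell (−1.48 ± 0.046), and Skil, a repressor of SMAD proteins, fell (−1.48 ± 0.047). Every butyrate sample of Inhba and Pmepa1 was below every vehicle sample. Id1, a target of BMP signalling, rose (1.29 ± 0.063). The SMAD subunit Smad4 (−0.37) and the receptor Tgfbr2 (−0.45) were not called. Pdgfb, a growth factor for mesenchymal cells, was at 51.1, 51.7 and 52.7 TPM with vehicle and 3.72, 3.83 and 3.80 TPM with butyrate (coefficient −3.46 ± 0.036).

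The actin cytoskeleton and focal adhesion genes were also lower, in a list drawn up after the values had been seen. Of 47 genes 24 fell and 0 rose (median −1.01), and 13 fell under the median of ratios. Itga2, the integrin subunit of the collagen receptor, was at 50.6, 49.7 and 49.8 TPM with vehicle and 9.75, 9.86 and 9.91 TPM with butyrate, 5.09-fold lower (coefficient −2.24 ± 0.048, SE, adjusted p = 7.66e-10). Flna, the actin cross-linker filamin A, was at 384, 372 and 367 TPM with vehicle and 88.5, 89.2 and 92.9 TPM with butyrate (−2.04 ± 0.038). Neither gene had a butyrate value inside the vehicle range. Fermt1, the integrin activator kindlin-1 (−2.28 ± 0.034), Ilk, a pseudokinase of focal adhesions (−1.94 ± 0.041), Tpm1, a tropomyosin (−1.59 ± 0.031), and Actn1, an actin cross-linker (−1.41 ± 0.027), fell with them, whereas Actb was not called (−0.89). Of 9 tubulin genes, a group taken by symbol after the values had been seen, 5 fell and 0 rose, and 2 fell under the median of ratios. Tubb2b, a beta-tubulin, was at 111, 119.5 and 112 TPM with vehicle and 8.55, 7.88 and 9.04 TPM with butyrate, values whose low counts were not whole in fragments, and Tuba1a, an alpha-tubulin, went from 342 to 62.4 TPM (−2.43 ± 0.033).

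Rgs4, which speeds the turn-off of G proteins, was at 39.4, 44.7 and 40.8 TPM with vehicle and 1.29, 1.43 and 1.54 TPM with butyrate, 29.4-fold lower (coefficient −4.14 ± 0.089, SE, adjusted p = 7.91e-10). Tm4sf1, a membrane protein with 4 spans, went from 31.9 to 2.73 TPM (−3.14 ± 0.044), Slco2a1, a transporter of prostaglandins, from 67.8 to 7.86 TPM (−2.96 ± 0.030), Vcam1, an adhesion molecule for leukocytes, from 12.1 to 0.493 TPM (−3.13 ± 0.035), and Fam167a from 28.1 to 2.80 TPM (−2.93 ± 0.042).

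Basal genes did not move as one group. Of 19 genes of basal identity and anchorage 7 fell and 2 rose (median −0.51), and under the median of ratios 2 fell and 4 rose. Lama3, a laminin chain of the epithelial basement membrane, was at 23.7, 23.1 and 23.3 TPM with vehicle and 7.35, 7.26 and 7.59 TPM with butyrate (coefficient −1.54 ± 0.040, SE, adjusted p = 2.19e-09). None of its butyrate values came near the vehicle range. Lamb3, another laminin chain, had a coefficient of −1.20, a call lost under the median of ratios (−0.90), as were those of Itgb1 (−1.12), Itga3 (−1.08), Bnc1 (−1.05) and Cd44 (−1.04). Dlk2, a membrane protein of the delta-like family, was at 0.516, 0.453 and 0.799 TPM with vehicle and 7.28, 7.34 and 7.56 TPM with butyrate (2.41 ± 0.076), and Ngfr, the low-affinity neurotrophin receptor of basal cells, rose (1.46 ± 0.036). The keratin Krt5 was at 1851, 1855 and 1838 TPM with vehicle and 3119, 3102 and 3235 TPM with butyrate (coefficient 0.77). Its partner Krt14 was at 1651, 1687 and 1691 TPM with vehicle and 1365, 1375 and 1432 TPM with butyrate (−0.27, and 0.05 under the median of ratios). Trp63, the basal lineage factor, was at 5.11, 5.28 and 5.30 TPM with vehicle and 8.37, 8.47 and 8.54 TPM with butyrate (0.60). Itga6, the integrin subunit of hemidesmosomes, was at 38.5, 37.7 and 37.8 TPM with vehicle and 33.0, 33.0 and 33.4 TPM with butyrate (−0.19, and 0.12 under the median of ratios). None of these 4 was past the limit. On the deposited scale the butyrate values of Krt5 and Trp63 lay above all vehicle values and those of Krt14 and Itga6 below them.

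Genes of the luminal list fell or were not called. Of its 17 genes of simple keratins and luminal or luminal progenitor epithelium 8 fell and 0 rose (median −0.92). Under the median of ratios 4 of these calls were kept. Psca, Krt4 and Ly6d, which rose, were not in this list. Krt8 was at 929, 927 and 894 TPM with vehicle and 272, 275 and 279 TPM with butyrate, 3.33-fold lower (coefficient −1.73 ± 0.028, SE, adjusted p = 1.63e-10). Epcam, an adhesion molecule of simple epithelia, was at 531, 546 and 532 TPM with vehicle and 169.6, 172 and 169.9 TPM with butyrate (−1.65 ± 0.028). Both genes were lower in each butyrate sample than in any vehicle sample. Prom1, a membrane protein of luminal progenitors (−1.32 ± 0.043), and Aldh1a3, which makes retinoic acid (−1.43 ± 0.047), also fell. Krt18 (−1.26), Cldn3 (−1.08), Cldn4 (−1.21) and Cldn7 (−1.06) fell as well, with their calls lost under the median of ratios. Krt19, a further simple keratin, was not called (−0.43). Cldn1, the claudin of the epidermal barrier, went the other way, at 6.10, 5.50 and 5.15 TPM with vehicle and 18.9, 17.2 and 18.5 TPM with butyrate (1.55 ± 0.053).

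Every interferon-stimulated gene that was called fell. Of 27 genes 16 fell and 0 rose, all 27 coefficients were below 0 (from −2.63 to −0.14), and the median was −1.06. Under the median of ratios 11 fell and under voom 13 fell. The promoters of Isg15 and Ifit3 are shown because these genes were among the most lowered of the list and hold the letters of the element that interferon-activated factors bind. Capitals mark the interferon-stimulated response element (TTTC, 2 bases of any kind, then TTTC, on either strand), in windows of 250 bases before the RefSeq start on GRCm38.p6, at chr4:156200819-156201068 on the minus strand and chr19:34583279-34583528 on the plus strand.
Isg15: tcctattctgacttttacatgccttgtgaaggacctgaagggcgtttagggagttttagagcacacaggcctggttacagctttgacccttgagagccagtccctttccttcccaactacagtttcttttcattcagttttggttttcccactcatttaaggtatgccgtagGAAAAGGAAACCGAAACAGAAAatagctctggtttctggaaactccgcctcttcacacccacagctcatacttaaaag
Ifit3: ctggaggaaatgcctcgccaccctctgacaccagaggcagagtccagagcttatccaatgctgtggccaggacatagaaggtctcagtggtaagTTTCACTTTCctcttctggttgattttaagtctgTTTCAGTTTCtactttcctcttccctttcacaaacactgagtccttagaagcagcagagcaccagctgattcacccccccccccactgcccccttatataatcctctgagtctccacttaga
The window of Isg15 held 3 overlapping matches and that of Ifit3 held 2. Any match was found in 2.44% of all promoters of the genes tested and in 3.04% of all RefSeq promoters. Both windows were chosen because they held the element, so their matches do not show how often it occurs among lowered genes.

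Isg15, a ubiquitin-like modifier, was at 19.6, 24.4 and 18.8 TPM with vehicle and 3.44, 3.20 and 2.98 TPM with butyrate, 6.52-fold lower (coefficient −2.37 ± 0.21, SE, adjusted p = 6.14e-06). Oasl2, an oligoadenylate synthetase-like protein, was at 11.8, 11.97 and 10.9 TPM with vehicle and 1.03, 1.07 and 0.956 TPM with butyrate, 11.3-fold lower. The groups were apart for both. Ifit1 (−1.65 ± 0.28) and Ifit3 (−1.69 ± 0.19), which bind foreign RNA, fell, with Ifit3 not whole in fragments in any sample, and Rsad2, the antiviral enzyme viperin, fell (−1.24 ± 0.16). Among regulators, Irf7 went from 38.6 to 12.5 TPM (−1.55 ± 0.10), whereas Irf9 (−1.23), part of the receptor-activated complex, lost its call under the median of ratios. Parp14, Dtx3l and Parp9, neighbours on chromosome 16 that fell together, had coefficients of −1.49 ± 0.048, −1.33 ± 0.047 and −1.06 ± 0.032, the last lost under the median of ratios. Of 13 genes of MHC class I presentation 3 fell, with all 3 calls lost under the median of ratios, and H2-Q7 rose (1.11), with 1 of 6 values whole in fragments. H2-Ab1, an MHC class II chain, was at 0.412, 0.412 and 0.511 TPM with vehicle and 6.01, 6.83 and 6.50 TPM with butyrate (coefficient 2.36 ± 0.056, SE, adjusted p = 1.19e-09), each butyrate sample being well above the vehicle samples.

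Cytokines, chemokines and secreted inflammatory proteins fell in larger number than they rose. Of 27 genes 13 fell and 1 rose (median −0.92), and 10 fell under the median of ratios. Clu, the secreted chaperone clusterin, was at 515, 514 and 502 TPM with vehicle and 25.0, 24.4 and 26.4 TPM with butyrate, 20.2-fold lower (coefficient −4.28 ± 0.041, SE, adjusted p = 1.86e-11). Csf2, the cytokine GM-CSF, was at 40.9, 36.7 and 37.9 TPM with vehicle and 1.97, 1.99 and 2.53 TPM with butyrate, 17.8-fold lower. All butyrate values of both genes were below the lowest vehicle value. Csf3 (−2.28 ± 0.092) and Csf1 (−1.795 ± 0.042), other colony-stimulating factors, the neutrophil chemokines Cxcl1 (−1.59 ± 0.054) and Cxcl2 (−1.76 ± 0.064), the iron-binding protein Lcn2 (−1.61 ± 0.10) and the prostaglandin synthase Ptgs2 (−1.504 ± 0.055) fell. Tnf (−1.21) and Cxcl5 (−1.27) fell as well, with both calls lost under the median of ratios. Il33, an alarmin of epithelial nuclei, rose (1.10 ± 0.041).

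The calcium-binding proteins S100a8 and S100a9, which form a complex found in neutrophils and in stressed squamous epithelium, rose. S100a8 was at 2.57, 2.50 and 2.27 TPM with vehicle and 13.6, 15.9 and 13.0 TPM with butyrate (coefficient 2.13 ± 0.076, SE, adjusted p = 1.28e-08). S100a9 was at 1.27, 1.01 and 1.51 TPM with vehicle and 13.8, 13.6 and 14.2 TPM with butyrate (coefficient 2.72 ± 0.073, SE, adjusted p = 2.49e-09). In both genes all butyrate samples were above all vehicle samples. Of 22 subunits, inhibitors and kinases of NF-kappaB, a list drawn up after the values had been seen, 7 fell and 0 rose (median −0.58), and the calls of Nfkbie, an inhibitor (−1.56 ± 0.052), and Traf1, an adaptor (−1.52 ± 0.054), were the 2 kept under the median of ratios.

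Genes for the metabolism of foreign compounds rose. Of 33 detoxifying enzymes, a list drawn up after the values had been seen, 19 rose and 0 fell, with a median of 1.17. Ugt2b34, a glucuronosyltransferase, was at 2.62, 2.86 and 2.65 TPM with vehicle and 33.2, 30.0 and 31.6 TPM with butyrate, 11.7-fold higher (coefficient 3.14 ± 0.13, SE, adjusted p = 3.00e-08). Aldh3a1, an aldehyde dehydrogenase of surface epithelia, was at 5.80, 8.38 and 6.21 TPM with vehicle and 49.3, 51.5 and 50.3 TPM with butyrate (2.73 ± 0.13). The groups did not overlap for either enzyme. The carboxylesterases Ces2e (2.01 ± 0.081), Ces2f (1.10 ± 0.070) and Ces2g (2.82 ± 0.048) lie next to each other on chromosome 8 and all rose. They were the 3 carboxylesterases tested, a group taken by symbol after the values had been seen. Nqo1, a quinone reductase and target of NRF2, rose (1.398 ± 0.041), as did the glutathione transferases Gsta4 (1.62 ± 0.055), Gsto1 (1.61 ± 0.12) and Gsta1 (2.32 ± 0.12, 1 of 6 values whole in fragments). Cyp1b1, a cytochrome P450 induced through the aryl hydrocarbon receptor, was not called (0.62).

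Of 23 genes for glutathione, NRF2 targets and metallothioneins 5 rose and 1 fell. Mt4, the metallothionein of stratified squamous epithelium, was at 0.411, 0.849 and 0.327 TPM with vehicle and 13.9, 11.8 and 13.2 TPM with butyrate, 24.5-fold higher (coefficient 3.20 ± 0.13, SE, adjusted p = 2.76e-08), with every butyrate sample above the vehicle samples. The widely expressed Mt1 (0.80) and Mt2 (0.69) were not called, and Gpx3, a secreted glutathione peroxidase, fell (−1.42 ± 0.10).

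Water and ion transport genes rose in part. Of 15 such genes 6 rose and 1 fell (median 0.27). The promoter of Aqp3, the channel for water and glycerol of basal keratinocytes, is shown because it rose most of the transport genes, in the 250 bases before its start at chr4:41098184-41098433 on the minus strand of GRCm38.p6, with a TATA box (TATAAA) and a GC box (GGGCGG, here on the other strand) in capitals.
Aqp3: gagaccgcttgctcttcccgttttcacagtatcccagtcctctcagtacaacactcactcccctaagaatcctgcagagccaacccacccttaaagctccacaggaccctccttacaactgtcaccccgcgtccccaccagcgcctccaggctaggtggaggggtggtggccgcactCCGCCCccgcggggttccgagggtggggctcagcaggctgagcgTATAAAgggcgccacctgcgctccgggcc
The window held 14 CpG and 64.0% G and C, and a GC box was found in 62.0% of the promoters of the genes tested. Aqp3 was at 3.57, 3.54 and 2.92 TPM with vehicle and 104, 107 and 105 TPM with butyrate, 31.5-fold higher (coefficient 4.62 ± 0.065, SE, adjusted p = 8.52e-11). Car12, a carbonic anhydrase of the cell membrane, was at 1.58, 1.74 and 1.70 TPM with vehicle and 26.3, 26.1 and 26.6 TPM with butyrate, 15.7-fold higher. Both rose in each butyrate sample above the whole vehicle range. Aqp4 (2.42 ± 0.095) and Aqp5 (1.35 ± 0.16), other water channels, Scnn1b, a subunit of the epithelial sodium channel (1.89 ± 0.025), and Clca2, a regulator of chloride currents (1.58 ± 0.047), rose. Slc39a4, a zinc importer, was at 251, 245 and 248 TPM with vehicle and 31.8, 31.0 and 35.5 TPM with butyrate, 7.57-fold lower (coefficient −2.88 ± 0.062, SE, adjusted p = 7.43e-10).

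Genes of the deacetylases themselves and of the machinery around them were not called. Of 16 histone deacetylase and sirtuin genes 0 were called by limma, under the median of ratios or by voom, with coefficients from −0.57 to 0.38, and 11 had an unadjusted p under 0.05. Hdac1 was at 10.6, 10.6 and 10.3 TPM with vehicle and 7.83, 8.13 and 7.59 TPM with butyrate (coefficient −0.38 ± 0.042, SE, adjusted p = 2.82e-05). Hdac2 was at 19.3, 20.2 and 20.1 TPM with vehicle and 12.7, 13.6 and 13.0 TPM with butyrate (coefficient −0.57 ± 0.041, SE, adjusted p = 1.38e-06). The butyrate values of both lay below the vehicle values, as did the median of all genes. Of 31 acetyltransferases, bromodomain readers and co-repressor subunits 0 were called by limma or voom (28 at an unadjusted p under 0.05). Of 12 genes that deacetylase inhibitors often raise in cultured cells 0 were called by limma (median −0.33, 12 at an unadjusted p under 0.05), and 2 were higher by voom and under the median of ratios, Klf4 and Txnip, an inhibitor of thioredoxin (0.97 on the deposited scale and 1.28 under the median of ratios). Cdkn1a, the kinase inhibitor p21, was at 120.9, 123.2 and 116 TPM with vehicle and 77.6, 77.0 and 79.6 TPM with butyrate (coefficient −0.62 ± 0.034, SE, adjusted p = 1.94e-07). H1f0, a linker histone of non-dividing cells, was at 894, 895 and 875 TPM with vehicle and 828, 834 and 839 TPM with butyrate (coefficient −0.09, and 0.22 under the median of ratios). Both were lower in each butyrate sample on the deposited scale, and the direction of H1f0 turned with the scaling. Without butyrate replicate 2, 1 gene of the 12 was lower. Of 11 replication-independent histone genes 0 were called by limma or voom (10 at an unadjusted p under 0.05). Of 20 DNA methylation and Polycomb genes 0 were called (18 at an unadjusted p under 0.05), 1 was higher by voom and under the median of ratios, and 1 was lower without vehicle replicate 3 or without butyrate replicate 3. Of 54 histone genes of the replication-dependent clusters, whose copies are nearly alike, 3 rose and 1 fell, beside 1.98% and 4.24% of all genes. Under the median of ratios 6 of them rose and 0 fell.

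Replication and mitosis genes had no call in either direction. Of 26 replication genes and 26 mitosis genes 0 were called by limma or voom, while 26 and 25 had an unadjusted p under 0.05. All had coefficients below 0, and their medians of −0.50 and −0.44 became −0.22 and −0.14 under the median of ratios. Ccnd2, a D cyclin, rose and was at 22.8, 23.1 and 22.9 TPM with vehicle and 52.8, 54.4 and 56.1 TPM with butyrate (coefficient 1.21 ± 0.049, SE, adjusted p = 2.71e-08). Ccnd1, another D cyclin, fell and was at 509.8, 521 and 513 TPM with vehicle and 237, 245 and 242 TPM with butyrate (−1.09 ± 0.022), a call lost under the median of ratios. The groups did not overlap for either. They were the 2 called among 14 D cyclins, kinases and inhibitors, and 2 of these genes were lower without butyrate replicate 2. Of 14 Bcl2 family genes 3 fell, among them the activators Bbc3 (−1.49 ± 0.054) and Bid (−1.33 ± 0.056), and 0 rose.

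Genes that handle butyrate itself included 2 that rose among 14. Slc16a1, the monocarboxylate transporter MCT1 that carries butyrate across the membrane, was at 18.1, 18.6 and 18.2 TPM with vehicle and 39.7, 39.9 and 40.8 TPM with butyrate, 2.19-fold higher (coefficient 1.09 ± 0.039, SE, adjusted p = 1.34e-08). Acsm3, which activates medium-chain and short-chain fatty acids to their coenzyme A esters, was at 1.96, 1.95 and 1.87 TPM with vehicle and 6.65, 6.60 and 6.57 TPM with butyrate, 3.43-fold higher (coefficient 1.38 ± 0.088, SE, adjusted p = 5.89e-07). No butyrate sample overlapped the vehicle samples in either. Of 17 genes of fatty acid oxidation and its regulators, 2 fell, Angptl4, an inhibitor of lipoprotein lipase (−1.84 ± 0.056), and Plin2, a coat protein of lipid droplets (−1.36 ± 0.023). Of 17 glycolysis genes 0 were called by limma and 1 by voom (14 at an unadjusted p under 0.05). Of 21 genes of pyruvate entry and the TCA cycle and 22 of cholesterol synthesis 0 were called by limma or voom (19 and 22 at an unadjusted p under 0.05). Of 21 chaperone genes 0 were called by limma or voom (19 at an unadjusted p under 0.05), and 1 was lower without vehicle replicate 1, without vehicle replicate 3 or without butyrate replicate 3.

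Signalling and stress lists held between 1 and 4 called genes each, where 1.98% of all genes rose and 4.24% fell. Counts this small describe single genes and not the list. In Notch signalling Dll1, a ligand, rose (1.78 ± 0.065), and Jag1, a ligand (−1.45 ± 0.031), and Hey1, a target (−1.58 ± 0.14), fell, of 11 genes. In the retinoid list of 10 genes Crabp2, a carrier of retinoic acid, rose (1.92 ± 0.078), while Rdh10 (−1.79 ± 0.049) and Aldh1a3, which make retinoic acid, and Cyp26b1, which breaks it down (−1.73 ± 0.053), fell. Of 11 EGF family genes Epgn, the ligand epigen, rose (1.41 ± 0.070), and of 23 immediate early genes Fos (1.02 ± 0.030) and Egr2 (1.23 ± 0.094) rose and Dusp4, a phosphatase of MAP kinases (−1.68 ± 0.063), fell. Among 18 genes of the integrated stress response 3 fell, including Chac1, which degrades glutathione (−1.33 ± 0.088), and Trib3, a pseudokinase target of the response (−1.29 ± 0.068). In a list of 16 clock genes drawn up after the values had been seen, Nr1d1, a nuclear receptor that represses the clock (1.81 ± 0.038), and Dbp, an output factor (1.37 ± 0.035), rose, and Bhlhe41, a clock repressor, fell (−2.24 ± 0.026), as did Nfil3 (−1.10, call lost under the median of ratios). Of 9 imprinted genes H19, a long non-coding RNA, was at 2.13, 3.27 and 2.97 TPM with vehicle and 13.4, 11.9 and 14.1 TPM with butyrate (1.91 ± 0.14, SE, adjusted p = 1.63e-06), each butyrate value being above the vehicle range. Nnat fell (−1.11), a call lost under the median of ratios.

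Genes that crossed from under 0.1 TPM to at least 1 TPM were few. With butyrate 22 genes did so, 17 of them called and 11 protein coding, and 22 did the reverse, 14 of them called and 14 protein coding. They were picked by the same group means that the coefficient compares, and each passed the level filter through its high group only. Their called counts, beside 6.22% of all genes, and the gaps between their groups are therefore largely set by the choice and are a description only. Pi15, a secreted trypsin inhibitor, was at 0.0468, 0.0268 and 0.0413 TPM with vehicle and 6.80, 7.07 and 7.15 TPM with butyrate, with 8.0001 against 1808 fragments on average. Chit1, a chitinase, was at 0.0412, 0.0851 and 0.0327 TPM with vehicle and 2.62, 2.58 and 2.66 TPM with butyrate, with 14.7 against 939 fragments. Vehicle samples of both were near 0 and butyrate samples were close to each other. Tff1, a trefoil peptide of mucous surfaces, was at 0.0778, 0.201 and 0 TPM with vehicle and 8.02, 8.51 and 7.69 TPM with butyrate. The homeodomain factor Dlx5 was at 0, 0.0364 and 0.0840 TPM with vehicle and 2.03, 1.63 and 1.89 TPM with butyrate. The forkhead factor Foxe1 was at 0.108, 0.0556 and 0 TPM with vehicle and 1.38, 2.28 and 1.96 TPM with butyrate. These 3 had under 3 fragments on average with vehicle, at least 1 vehicle sample of each had 0, and no butyrate sample overlapped the vehicle samples. Fam25c had 0 fragments in each vehicle sample, and 3.71, 2.91 and 3.99 TPM with butyrate. Degs2, a sphingolipid desaturase and hydroxylase of barrier epithelia, was at 0.0768, 0.0672 and 0.0664 TPM with vehicle and 1.61, 1.29 and 1.56 TPM with butyrate. Of its 6 values 1 was whole in fragments, and of the 5 values of Tff1 above 0, 2 were whole, so that the levels of both are uncertain.

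In the other direction Cxcl13, a chemokine for B cells, was at 3.92, 4.43 and 4.31 TPM with vehicle and 0.104, 0.0564 and 0.139 TPM with butyrate. Adam12, a membrane metalloprotease, was at 1.301, 1.28 and 1.27 TPM with vehicle and 0.0126, 0.0196 and 0.0121 TPM with butyrate, with 3184 against 45.7 fragments. Osr1, a zinc finger factor of urogenital development, was at 1.41, 1.63 and 1.31 TPM with vehicle and 0.0283, 0.133 and 0.0502 TPM with butyrate. Vehicle samples of these 3 genes were all above 1 TPM. Ctla2a, a cathepsin inhibitor, was at 3.51, 4.30 and 3.97 TPM with vehicle and 0.130, 0.0940 and 0.0462 TPM with butyrate. The butyrate samples of the 4 genes were all below 0.2 TPM. Of 34 neuronal genes in the table, a class mostly silent in epithelium, 7 reached 1 TPM with 0 called by limma and 2 by voom (5 at an unadjusted p under 0.05), and of 12 germline genes 2 reached 1 TPM with 0 raised and Rec8, a meiotic cohesin subunit, lowered (−1.19, call lost under the median of ratios).

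Raised and lowered genes differed in level and in length of the gene. Raised protein-coding genes had a median genomic span of 7.75 kb and a median vehicle level of 1.93 TPM, and lowered genes a span of 13.4 kb and a level of 17.9 TPM. Protein-coding genes that were not called had 20.7 kb and 7.77 TPM. TPM was divided by the same span, so that span and level are not independent. In recovered fragments the median vehicle level was 145 for raised, 2189 for lowered and 1367 for uncalled genes. The level is part of the filter and of the contrast itself, and is given as a description.

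RNA of the mitochondrial genome was called higher in 1 of 2 ribosomal RNAs and in 2 of 10 transfer RNAs. The gene for the small subunit RNA, mt-Rnr1, was at 2449.6, 2428 and 2537 TPM with vehicle and 7368, 7319.5 and 7032 TPM with butyrate (coefficient 1.55 ± 0.038, SE, adjusted p = 1.43e-09). The gene for the large subunit RNA, mt-Rnr2, was at 6474, 6258 and 6615 TPM with vehicle and 11069.6, 11277 and 10540.0 TPM with butyrate (0.77, called under the median of ratios at 1.08). All butyrate values were above the vehicle values. The transfer RNA genes mt-Tn, at 31.9, 22.0 and 23.6 TPM with vehicle and 86.1, 72.0 and 72.4 TPM with butyrate (coefficient 1.55 ± 0.23, SE, adjusted p = 2.36e-04), and mt-Tq, at 14.9, 6.59 and 13.5 TPM with vehicle and 31.7, 24.5 and 29.0 TPM with butyrate (1.28 ± 0.30), were the 2 called higher. The call of mt-Tq was lost without vehicle replicate 2 (0.95), without any 1 of the butyrate replicates (1.20 to 1.38, adjusted p from 0.0104 to 0.0211, limma) and with the 6 samples alone (adjusted p = 0.0220, limma). Of the 10 transfer RNAs 3 were higher under the median of ratios and 4 by voom. The 13 mitochondrial protein-coding genes had 0 called by limma and 0 by voom (10 at an unadjusted p under 0.05), with coefficients from −0.37 to 0.53, of which 7 were above 0. The labels describe removal of ribosomal RNA before mRNA was enriched, whereas the study's methods name enrichment of mRNA alone, and the part of either step in these values was not tested. Nuclear ribosomal RNA held 2.18 ± 0.304% of TPM with vehicle and 1.89 ± 0.217% with butyrate (SD, n = 3), and 0.774 ± 0.104% and 0.842 ± 0.0936% of recovered fragments. The direction turned with the scale, and the ranges overlapped on both.

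The composition of the TPM total moved with the groups. Nuclear protein-coding genes held 40.2 ± 0.401% of TPM with vehicle and 35.3 ± 0.296% with butyrate, pseudogenes 42.3 ± 0.188% and 46.1 ± 0.197%, and mitochondrial genes 13.3 ± 0.555% and 14.7 ± 0.587% (SD, n = 3). Ribosomal protein genes held 4.48 ± 0.0474% and 5.71 ± 0.0384%. Because TPM was divided by genomic span, short genes weigh more in it than in fragments. Of recovered fragments nuclear protein-coding genes held 89.5 ± 0.161% with vehicle and 86.5 ± 0.126% with butyrate, pseudogenes 5.78 ± 0.0332% and 7.56 ± 0.0385%, mitochondrial genes 2.59 ± 0.114% and 3.60 ± 0.155%, and ribosomal protein genes 1.87 ± 0.00399% and 2.94 ± 0.0108%. Each of these 4 shares moved in the same direction on both scales. Of 80 ribosomal protein genes 74 had coefficients above 0, 0 were called by limma and 1 by voom, and 75 had an unadjusted p under 0.05. Of 76 mitochondrial ribosomal protein genes 69 had coefficients below 0, 0 were called by limma and 0 by voom, and 62 had an unadjusted p under 0.05. In bulk samples fewer cells of a type and less RNA per cell cannot be told apart, here or in any result above.

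Most markers of cell types that epithelial organoids should lack were under 1 TPM, and Cd68, Cd14 and Dcn were called. Of 7 immune markers 4 were in the table, 3 of these were under 0.1 TPM in both groups, and the sum went from between 23.9 and 24.8 TPM with vehicle to between 66.3 and 68.7 TPM with butyrate through Cd68, a lysosomal protein that is not exclusive to macrophages, at 24.8, 24.1 and 23.8 TPM with vehicle and 67.5, 66.2 and 68.6 TPM with butyrate (1.44 ± 0.038). In a longer list of 12 immune markers, of which 5 were in the table, Cd14, a co-receptor for lipopolysaccharide that epithelial cells also make, was at 215, 219.9 and 209.9 TPM with vehicle and 31.1, 30.1 and 30.7 TPM with butyrate (−2.77 ± 0.060). Of 7 stromal markers 2 reached 1 TPM, and their sum went from between 2.30 and 2.36 TPM to between 10.5 and 10.8 TPM through Dcn, the proteoglycan decorin, at 0.678, 0.760 and 0.849 TPM with vehicle and 9.62, 9.37 and 9.56 TPM with butyrate (2.58 ± 0.068). The 4 endothelial markers summed to between 0.690 and 0.825 TPM and to between 1.44 and 1.66 TPM. Ptprc, Csf1r and Itgam of the immune list, Pecam1, Cdh5 and Kdr of the endothelial list and Myh11 of the stromal list were under 0.1 TPM in all 6 samples, and Cd3e, Lyz2 and Adgre1 were not used here. The part of such cells in the results was not tested.

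Butyrate was also set against UK5099, the other single treatment, in the same fit. Butyrate and UK5099 differed in 442 genes (3.14%), of which 168 were higher with butyrate (1.19%) and 274 lower (1.95%). Thbs2 was at 21.9 ± 0.277 TPM with butyrate and 2.54 ± 0.207 TPM with UK5099 (SD, n = 3), beside 0.570 ± 0.0391 TPM with vehicle, a difference of 2.699 ± 0.046 (SE, adjusted p = 6.53e-10). Mgp was at 44.2 ± 0.396 and 7.70 ± 0.723 TPM (2.38 ± 0.068, SE, adjusted p = 8.72e-09), and Lrg1, a secreted leucine-rich glycoprotein, at 19.3 ± 1.26 and 2.27 ± 0.404 TPM (2.64 ± 0.16, SE, adjusted p = 7.77e-07). These 3 genes were higher with butyrate alone than with vehicle or with UK5099 alone. Tff1 at 2.64 and Clca1, a secreted protein of mucous cells, at 2.60 completed the 5 largest differences in this direction.

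In the other direction Krt10 was at 8.14 ± 0.326 TPM with butyrate and 118 ± 12.5 TPM with UK5099, beside 2.64 ± 0.190 TPM with vehicle, a difference of −3.70 ± 0.11 (SE, adjusted p = 1.12e-08). Cyp1b1 was at 4.42 ± 0.195 and 61.5 ± 1.78 TPM (−3.53 ± 0.039, SE, adjusted p = 1.45e-10). Krt10 was thus higher with butyrate than with vehicle and lower than with UK5099. Sprr2d, a small proline-rich envelope protein (−3.33), Inhba (−3.31) and Krt6b (−3.24) were the other large differences. By list, 7 of 23 cornified envelope genes and 4 of 13 suprabasal keratins were lower with butyrate than with UK5099, and 1 and 0 were higher. Of 28 matrix genes 10 were lower and 1 higher, of 47 actin and adhesion genes 12 were lower and 0 higher, of 27 inflammation genes 6 were lower and 2 higher, and of 19 basal genes 8 were lower and 2 higher. Of 27 interferon-stimulated genes 0 were called in either direction by limma and 2 by voom, and 16 had an unadjusted p under 0.05.

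**Figure D5:**
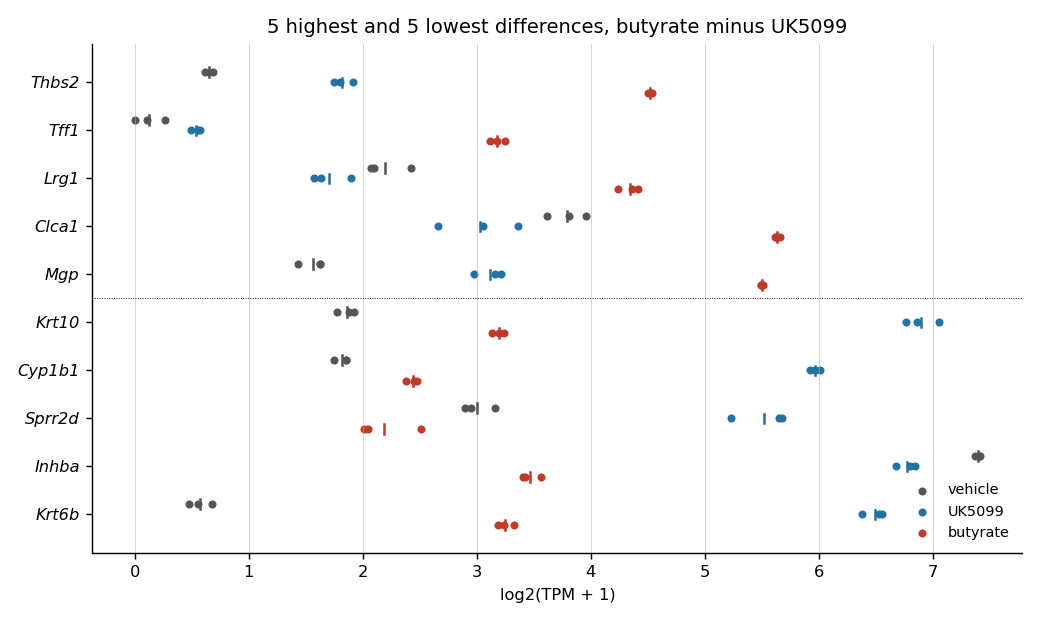
Levels (horizontal axis, log2 of TPM + 1) of the 10 genes with the largest differences between butyrate and UK5099 (one row per gene), with a point for each vehicle, UK5099 and butyrate sample. Thbs2, Tff1, Lrg1, Clca1 and Mgp are higher with butyrate, and Krt10, Cyp1b1, Sprr2d, Inhba and Krt6b are lower.

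The term for both compounds together tested whether the effect of butyrate differed when UK5099 was present. It was past both limits for 239 genes (1.7%). This term shares the vehicle samples with the butyrate coefficient, so their values are given side by side only. In Nccrp1 it was −4.51 beside a butyrate coefficient of 5.90, in Aqp3 −3.75 beside 4.62, in Fn1 3.87 beside −5.20 and in Clu 1.79 beside −4.28.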

How the data were processed

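RNA was sequenced from basal-derived mouse prostate organoids in 4 groups of 3 samples (vehicle, UK5099, butyrate, and both), of which the vehicle and butyrate samples were compared here and the others entered the fit. The authors deposited 1 table of TPM per gene and sample, in which fragments were divided by a gene length that equals the whole genomic span and brought to a sum of 1000000 in each sample. Long introns therefore lower a gene's TPM, and levels of different genes are set side by side only as medians of classes, with the fragments beside them. The submitters' processing notes name STAR 2.7.9a, Partek and GRCm39, whereas the study's methods describe another aligner version, GRCm38 and RSEM, and the table does not say which were used. For the libraries, the labels describe a kit that removes ribosomal RNA before mRNA is enriched, and the study's methods a different kit without that removal.

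TPM values were tested as log2(TPM + 1) with limma 3.58.1 (R 4.3.3) on all 24674 genes and 12 samples, with terms for UK5099, butyrate and their interaction, and p-values were adjusted by the Benjamini-Hochberg method over all genes. A gene was called at an adjusted p under 0.01 and a coefficient over 1 in size. Multiples of 1 fragment were recovered from the TPM steps for an alternative fit with voom, and between 66.5% and 67.3% of the values under 1000 fragments came out whole to within 0.02. The other alternatives were a pseudocount of 0.1, median of ratios and quantile scaling, rescaling of nuclear protein-coding genes, only genes with at least 1 TPM, a trended robust prior, a replicate block, the 6 samples of 2 groups alone, and each sample left out. The fits were checked on simulated data.

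The genes and gene lists were chosen with earlier results of these data known, so that lists are described by counts and medians without a test. The 5 lists for actin and adhesion, TGF-beta and Hippo signalling, detoxification, the clock and NF-kappaB were drawn up after the values had been seen. So were the groups taken by symbol, such as the metalloproteinases, TGF-beta ligands, tubulins and carboxylesterases. Genes named are the 15 highest and 15 lowest coefficients among called protein-coding genes, called and key members of the lists, the 5 largest differences from UK5099 in each direction, genes that crossed between 0.1 and 1 TPM and those nearest the 1 TPM limit. Cldn1, S100a8, S100a9, Pglyrp4, H2-Ab1, Tuba1a, Csta1, Stfa3, Krtap3-2, Krtap1-5, Smad4, Tgfbr2, Bmp3, Mmp23, Mmp28 and the mitochondrial RNAs lie outside this rule and were chosen after their values were seen. Promoters come from RefSeq on GRCm38.p6, matched by symbol for 8403 of 10483 protein-coding genes. No cell counts accompany the bulk libraries, and markers of other cell types were checked by level only. Some genes that the lists count are not reported here by name.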

Additional observations from a re-analysis of the deposited data

Results flagged for a closer look

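The effect of butyrate differed with and without UK5099, by the test of the interaction term at an adjusted p under 0.01 and a size over 1, in 239 genes. Among the 30 protein-coding genes with the highest and lowest butyrate coefficients this term was past both limits in 25, with a highest adjusted p of 0.00109 (limma), beside 1.70% of all genes. The 30 were chosen by the butyrate coefficient, which enters this term with the opposite sign, so the 25 are no independent count. It is the change in the butyrate coefficient, in log2 of TPM + 1, when UK5099 was present. Among the genes raised by butyrate it was past both limits in Nccrp1 (−4.51), Ly6g6c (−3.89), Teddm3 (−4.06), Crnn (−3.42), Aqp3 (−3.75), Mgp (−2.04), Fabp5 (−2.31), Car12 (−1.91), Fgfr3 (−1.02), Mt4 (−3.16), Ugt2b34 (−1.48) and Psca (−3.21). Among the genes lowered by butyrate it was past both limits in Fn1 (3.87), Spp1 (2.44), Clu (1.79), Rgs4 (3.58), Inhba (1.58), Csf2 (1.53), Tubb2b (1.93), Mmp9 (2.39), Pdgfb (1.803), Tnc (1.06), Tm4sf1 (1.14), Vcam1 (1.01) and Fam167a (1.28). With UK5099 alone, Aqp3 was at 153 ± 8.06 TPM, beside 3.34 ± 0.366 with vehicle and 105 ± 1.42 with butyrate, and Fn1 at 2.14 ± 0.139 TPM, beside 70.2 ± 1.92 and 0.938 ± 0.0741 (SD, n = 3). The interaction and the butyrate coefficient share the vehicle and butyrate samples, and the cause of these differences was not tested. No group held 4 or more samples, so single samples that stand apart within a group were not searched for.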

How the results depend on the processing

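Scaling moved the balance of calls most. The median coefficient of −0.30 became −0.36 with a pseudocount of 0.1, −0.0381 with the median of ratios, −0.0405 with quantile normalisation, −0.19 with nuclear protein-coding genes rescaled alone and −0.0470 with voom, and ranged from −0.30 to −0.29 with 1 sample left out. Against 874 genes called for butyrate (278 higher and 596 lower), a pseudocount of 0.1 gave 1403 (454 higher and 949 lower), the median of ratios 431 higher and 308 lower, quantile normalisation 319 lower, voom 767 higher, and the adjusted p alone 9618 (1654 higher and 7964 lower). With 1 sample left out, 862 to 895 genes were called, 272 to 279 higher and 587 to 616 lower. Against 442 genes that differed between butyrate and UK5099 (168 higher and 274 lower), a pseudocount of 0.1 gave 757 (301 higher and 456 lower), rescaled protein-coding genes 258 higher, quantile normalisation 176 lower and voom 798 (508 higher). With 1 sample left out this number was 430 to 444.

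Replicate numbers did not pair the samples: deviations of same-numbered vehicle and butyrate samples correlated at 0.0157, −0.0497 and −0.0423 across genes. With the number as a block 866 genes were called for butyrate. Of the 221 genes tested that the report names, 175 kept their direction and their side of the limits under every alternative run for them, as did the 10 genes named for butyrate against UK5099. The direction reversed in 5 uncalled genes. H1f0 was at 0.22 under the median of ratios, 0.0064 under quantile normalisation, 0.096 with protein-coding genes rescaled and 0.22 with voom, Itga6 at 0.12 under the median of ratios and with voom and 0.16 under quantile normalisation, and Krt14 at 0.0463 under the median of ratios and 0.0437 with voom. Letm2 ranged from −0.0050 (without vehicle replicate 1) to 0.0740 with 1 sample left out. Pus7l was at 0.14 under the median of ratios, 0.0453 under quantile normalisation, 0.12 with protein-coding genes rescaled, 0.29 with voom, and from −0.0481 to 0.0036 with 1 sample left out. The cause of these moves was not tested. Raised protein-coding genes had a median of 145 fragments with vehicle and 898 with butyrate, and lowered ones 2189 and 860, and no alternative varied the depth.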
